A study of Mus musculus with 2 samples.

Results

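The genes described here are the chemokines, the interleukins and their receptors in the uterus at gestation day 2.5 (G2.5). They were taken from the deposited table by symbol, as genes named Ccl, Cxcl, Ccr, Cxcr, Cx3cl, Cx3cr or Il followed by a number, without Il6st, Il11ra1 and Il2rb. This gave 89 of the 14678 genes. They comprise 16 CC, 12 CXC and 1 CX3C chemokine ligands, 14 chemokine receptors, 17 interleukins, 24 interleukin receptor chains and 5 antagonists or decoys.

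Uteri came from double transgenic females, VEGFtetO/tetO/beta-AKtg/wt, in both conditions. These mice carry tet operator copies in the VEGF promoter and a tetR-Krab repressor under the β-actin promoter, which is active in nearly all cell types, so that the repression was not limited to the uterus. Dox+ females ate chow with 200 mg/kg doxycycline, which keeps the repressor off VEGF (VEGF-normal). Their Dox− littermates had been taken off doxycycline at the age of 3 to 4 weeks, which leaves VEGF repressed (VEGF-repression). All were 9 to 10 weeks old and mated to VEGFtetO/tetO males. Total RNA of 3 uteri was pooled for each condition and sequenced as 1 library by digital gene expression (DGE), which counts sequence tags per gene (copies). With 1 library of each, no difference below has a replicate check, and every test compares these libraries and not the conditions.

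Chemokines are small secreted proteins that direct the migration of leukocytes. They are classed by the spacing of their first conserved cysteines (CC, CXC, CX3C), and they act on G protein-coupled receptors, while atypical receptors take them up without such signalling. Many interleukins signal through receptors built of a ligand-specific chain and a shared chain, and soluble antagonists and decoy receptors limit some of them. In the uterus before implantation, chemokines from epithelium and stroma are known to attract macrophages, eosinophils and other leukocytes.

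The Dox+ library held 5985926 clean tags and the Dox− library 5844314, of which 74.1% and 72.2% were counted on genes. Vegfa, the repressed gene, had 247 copies in Dox+ and 125 in Dox−, 1.93-fold lower (95% interval 1.55 to 2.41). The uterine genes Pgr, Esr1, Hoxa10 and Hoxa11 were present in both libraries with 165 copies or more, and they differed between them. Hoxa10 had 3120 copies in Dox+ and 1060 in Dox−, and Hoxa11 2573 and 785, and both were called lower by the rule given below. Pgr had 687 and 1251 and Esr1 165 and 262, and both were called higher. The part of these tissue genes in the differences of the chemokine and interleukin genes was not tested. Folds are ratios of copies per clean tag, and their intervals cover counting error only. A gene was called when its combined copies were at least 200, its absolute log2 ratio of Dox− over Dox+ was above 0.5 and the FDR of the Audic-Claverie test, which asks whether a gene makes up the same share of both libraries, was below 0.05.

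Most of these genes were expressed at low levels. Of the 89, 17 (19.1%) had at least 200 combined copies, against 44.6% of all genes, 39 had from 20 to under 200, and 33 (37.1%) had fewer than 20, against 17.7% of all genes. Among the 17, 7 were called higher in Dox− and 4 lower. These were 41.2% and 23.5% of them, where 18.8% of all 6547 genes with enough copies were called higher and 17.8% lower. The minimum applies to the sum of both libraries, so a gene can reach it through the library where it is high. Ccl11, with 45 copies in Dox+, and Il17ra, with 34, reached it through Dox−. The same minimum held for all genes. The median log2 ratio of the 17 was 0.32, and that of all genes with enough copies 0.03. Of these 39 genes, 15 (38.5%) had a fold interval above 1 and 8 (20.5%) below 1, against 21.1% and 20% of all genes in that range.

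**Figure D1:**
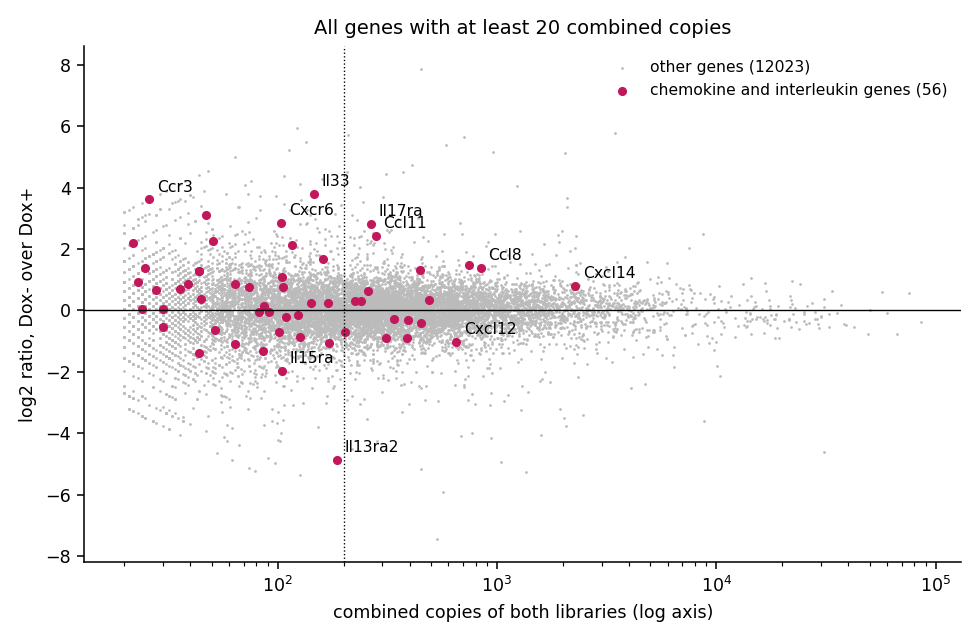
The log2 ratio of Dox− over Dox+ is plotted against the combined copies (log axis) for all genes with at least 20 combined copies, with 56 chemokine and interleukin genes in red and 12023 other genes in grey. The dotted line marks 200 combined copies, Il33 lies highest and Il13ra2 lowest of the red points.

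The CC ligands held 657 copies in Dox+ and 1329 in Dox−. Ccl8 (chromosome 11, 81928687 to 81930301 on NCBIM37), a monocyte chemoattractant protein, had 237 copies in Dox+ and 606 in Dox−, 2.62-fold higher (2.25 to 3.06). Without it the CC sum was 420 and 723 copies. The count intervals of the libraries did not overlap for Ccl8. Ccl11 (chromosome 11, 81871325 to 81876457), known as eotaxin for its action on eosinophils, had 45 copies in Dox+ and 235 in Dox−, 5.35-fold higher (3.87 to 7.53). Both CC ligands with enough copies were thus called higher in Dox−, where 18.8% of all genes with enough copies were.

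Of the 11 CC ligands with 20 to under 200 combined copies, 5 were higher in Dox− by their intervals and 2 lower. Of all genes in that range, 21.1% were higher and 20% lower. Ccl28, a mucosal ligand made by epithelia, had 22 and 94 copies in Dox+ and Dox−, 4.38-fold higher (2.73 to 7.31). Ccl6, a rodent chemokine of myeloid cells, had 39 and 122 copies, 3.20-fold higher (2.22 to 4.72). Ccl12 had 9 and 42 copies, 4.78-fold higher (2.29 to 11.2). These 3 intervals overlap one another, so that the counts do not order them. Ccl7, like Ccl12 a ligand of Ccr2, had 13 and 31 copies, 2.44-fold higher (1.24 to 5.09). Ccl3, a macrophage inflammatory protein, had 4 and 18 copies, and its interval, 1.52 to 18.7 around 4.61-fold, is wide because of the low counts.

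A pair of CC ligands went the other way. Ccl9, a rodent ligand of Ccr1, had 117 copies in Dox+ and 55 in Dox−, 2.08-fold lower (1.50 to 2.92). Ccl27a had 62 and 24 copies, 2.52-fold lower (1.55 to 4.23). The exons of Ccl27a overlap those of Il11ra1 on the other strand, and near-identical copies of the gene exist in the mouse genome, so its count is uncertain. The intervals of Ccl5, Ccl4, Ccl25 and Ccl2 held 1.

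The CC genes on chromosome 11 lie in 2 groups of neighbours. In the first, from 81849073 to 81930301, the order is Ccl2, Ccl7, Ccl11, Ccl12 and Ccl8. All 5 had more copies in Dox− than in Dox+, and all but Ccl2, with 11 and 17 copies, had an interval above 1. Of all genes with 20 to under 200 combined copies, 21.1% had such an interval. Of those with at least 200, 18.8% were called higher. In the second, from 83339280 to 83478185, the intervals of Ccl5, with 42 and 45 copies, and Ccl4, with 14 and 22, held 1, Ccl6 and Ccl3 were higher in Dox−, and Ccl9 was lower. Ccl9 and Ccl6, which went opposite ways, are next to each other among these genes.

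**Figure D2:**
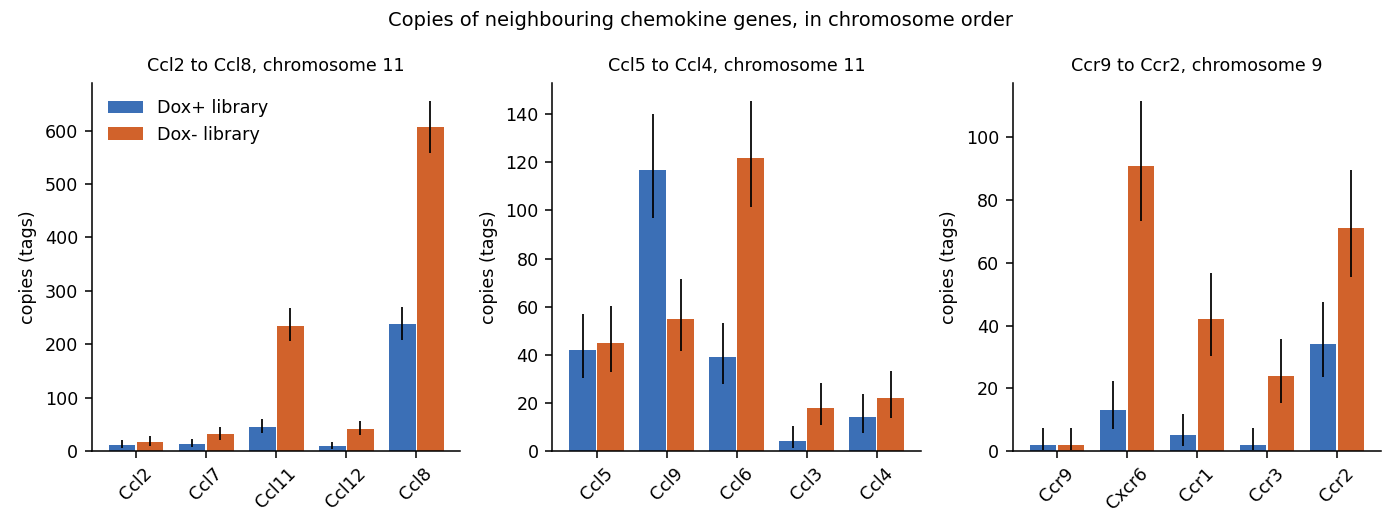
Bars give the copies (tags) of neighbouring chemokine genes in chromosome order in the Dox+ (blue) and Dox− (orange) libraries, with exact 95% Poisson intervals. All 5 genes from Ccl2 to Ccl8 had more copies in Dox−, while Ccl9 had fewer.

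The promoters of Ccl8 and Ccl12 are shown as the 2 genes of the first group for which a RefSeq promoter was matched (250 bases before the start site and 50 after, 5′ to 3′, GRCm38.p6). Capitals mark the TATA box letters TATAAA, read on the strand of the gene. They lie at chr11:82114935-82115234 and chr11:82101595-82101894, both on the plus strand.
Ccl8: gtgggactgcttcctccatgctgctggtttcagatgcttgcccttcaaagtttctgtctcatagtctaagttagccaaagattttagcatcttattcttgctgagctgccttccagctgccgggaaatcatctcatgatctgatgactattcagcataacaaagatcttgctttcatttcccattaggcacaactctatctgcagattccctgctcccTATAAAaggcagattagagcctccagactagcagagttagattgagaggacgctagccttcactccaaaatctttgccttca
Ccl12: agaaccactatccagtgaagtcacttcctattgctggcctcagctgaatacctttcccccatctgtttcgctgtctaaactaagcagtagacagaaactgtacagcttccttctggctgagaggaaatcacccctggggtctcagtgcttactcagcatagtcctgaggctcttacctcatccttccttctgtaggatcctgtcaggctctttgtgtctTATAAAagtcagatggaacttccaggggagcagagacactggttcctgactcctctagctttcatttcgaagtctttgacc
TATAAA began at -32 from the start site in Ccl8 and at -31 in Ccl12. These letters stood in 16 of 79 promoters of the genes described here (20.3%) and in 8.32% of all 32851 promoters. Neither of the pair held TTCNNNNGAA or TTCNNNGAA, the forms bound by STAT factors, or GGGNNTTTCC, a form of the κB site, on either strand. Of the 79 promoters, 12.7%, 10.1% and 11.4% held these motifs, where 6.95%, 8.30% and 1.63% of all promoters did. A gene can have several promoters here, and a match is a run of letters and not a bound site.

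Of the CXC ligands, 5 had enough copies. Cxcl14 (chromosome 13, 56390008 to 56397912), an epithelial chemokine, had 847 copies in Dox+ and 1430 in Dox−, 1.73-fold higher (1.59 to 1.88). It had the most copies of all 89 genes and held 32.5% of the chemokine ligand copies in Dox+ and 39.5% in Dox−. Without it the ligands summed to 1756 and 2192 copies. Cxcl17 (chromosome 7, 26185072 to 26197905), a chemokine of mucosal surfaces, had 102 and 156 copies, 1.57-fold higher (1.21 to 2.03). Cxcl16, a transmembrane ligand of Cxcr6, had 218 and 272 copies, 1.28-fold higher (1.07 to 1.53), and did not pass the log2 threshold. Its exons overlap those of Zmynd15 on the other strand.

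Cxcl12 and Cxcl15 were called lower. Cxcl12 (chromosome 6, 117118553 to 117131385), made by stromal and endothelial cells and the ligand of Cxcr4, had 441 copies in Dox+ and 210 in Dox−, 2.05-fold lower (1.74 to 2.43). Of the called genes, 5 were higher and 1, Cxcl12, lower by at least 2-fold, or 29.4% and 5.88% of the 17, where 4.61% of all genes with enough copies were higher and 5.62% lower by as much. Cxcl15 (chromosome 5, 91223560 to 91232093), known as lungkine, had 254 and 134 copies, 1.85-fold lower (1.50 to 2.30). In the same group of neighbours, the neutrophil chemoattractants Cxcl5, Cxcl1 and Cxcl2 had 0 copies in Dox+ and 10, 2 and 6 in Dox−. Tags seen once had been removed, and a count of 0 allows up to 3 copies, or 0.501 TPM in Dox+. The interferon-induced ligands were also scarce, with 9 and 10 copies of Cxcl9, 7 and 3 of Cxcl10 and 0 and 2 of Cxcl11.

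Among the chemokine receptors, Cxcr7 (chromosome 1, 92100555 to 92113326), an atypical receptor that takes up Cxcl12, had 129 copies in Dox+ and 316 in Dox−, 2.51-fold higher (2.04 to 3.10), and was called. Cxcr4, the signalling receptor of Cxcl12, had 40 and 66 copies, 1.69-fold higher (1.12 to 2.57). Cxcr4 had too few copies for a call, and its interval covers counting error only.

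Cxcr6, Ccr1, Ccr3 and Ccr2, from a group of neighbours on chromosome 9, were higher in Dox− by their intervals. The group also holds other receptors, among them Ccr9 with 2 copies in each library. Cxcr6, the receptor of Cxcl16, had 13 and 91 copies, 7.17-fold higher (3.99 to 14.0). Ccr1, a receptor of inflammatory CC ligands on myeloid cells, had 5 and 42 copies, 8.60-fold higher (3.41 to 27.9). Ccr3, the receptor of Ccl11, had 2 and 24 copies, 12.3-fold higher (3.05 to 107). The order of these 3 is not settled by the counts, since their intervals overlap.

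Ccr2, the receptor of Ccl2, Ccl7 and Ccl12 on monocytes, had 34 and 71 copies, 2.14-fold higher (1.40 to 3.32). Cx3cr1, found on macrophages and natural killer cells, had 28 and 46 copies, 1.68-fold higher (1.03 to 2.80), and its ligand Cx3cl1 had 66 and 58. Each of the 6 receptors with 20 to under 200 combined copies had an interval above 1, where 21.1% of all genes in that range did. A further 6 receptors, Cxcr3, Ccr4, Ccr9, Ccr10, Cxcr2 and Ccr7, had 12 copies or fewer in both libraries, and 4 of them had 0 in Dox−.

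**Figure D3:**
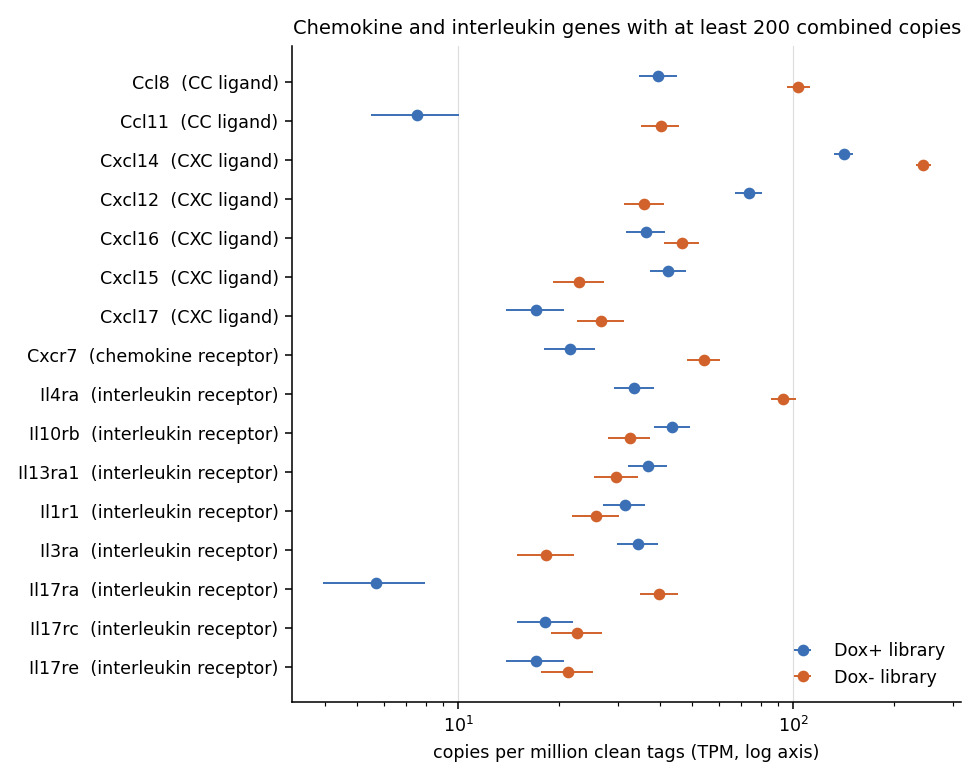
Copies scaled to the clean tags of the library (TPM, log axis) of 16 genes with at least 200 combined copies are shown for the Dox+ (blue) and Dox− (orange) libraries, with exact 95% Poisson intervals as bars. Ccl11 and Il17ra have the widest gaps between the libraries, and the intervals of Cxcl16, Il13ra1, Il1r1, Il17rc and Il17re overlap.

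No interleukin reached 200 combined copies. Il33 (chromosome 19, 29999604 to 30035194), an alarmin kept in the nucleus of epithelial and endothelial cells, had 10 copies in Dox+ and 136 in Dox−, 13.9-fold higher (7.35 to 29.7). It had the largest fold of the 56 genes with at least 20 copies in the higher direction, with an interval that overlaps that of Ccr3. The chains of its receptor went opposite ways. Il1rl1, the ligand-specific chain, had 7 and 18 copies, 2.63-fold higher (1.05 to 7.46), and Il1rap, the chain shared with the IL-1 receptor, had 44 and 20, 2.15-fold lower (1.24 to 3.85). The exons of Il1rap overlap another gene on the other strand.

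The promoter of Il33 is shown because Il33 differed most in the higher direction, and that of Il13ra2 because it differed most in the lower. Il33 has 2 start sites in RefSeq, at chr19:29924863-29925162 and chr19:29945540-29945839 on the plus strand, and the promoter of Il13ra2 is at chrX:147429143-147429442 on the minus strand (GRCm38.p6). Capitals mark TATAAA and, in the first promoter of Il33, also TTCNNNNGAA.
Il33, first start: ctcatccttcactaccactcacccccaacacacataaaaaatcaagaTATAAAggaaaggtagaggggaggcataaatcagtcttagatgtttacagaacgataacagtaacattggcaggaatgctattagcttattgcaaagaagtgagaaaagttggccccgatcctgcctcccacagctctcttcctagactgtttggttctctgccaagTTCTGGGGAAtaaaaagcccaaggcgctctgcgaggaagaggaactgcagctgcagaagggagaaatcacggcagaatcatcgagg
Il33, next start: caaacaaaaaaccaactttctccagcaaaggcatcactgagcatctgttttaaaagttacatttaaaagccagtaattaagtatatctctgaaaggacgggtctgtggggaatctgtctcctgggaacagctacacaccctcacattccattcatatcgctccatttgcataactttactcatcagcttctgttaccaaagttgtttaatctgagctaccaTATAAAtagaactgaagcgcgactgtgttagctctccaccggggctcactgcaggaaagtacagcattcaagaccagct
Il13ra2: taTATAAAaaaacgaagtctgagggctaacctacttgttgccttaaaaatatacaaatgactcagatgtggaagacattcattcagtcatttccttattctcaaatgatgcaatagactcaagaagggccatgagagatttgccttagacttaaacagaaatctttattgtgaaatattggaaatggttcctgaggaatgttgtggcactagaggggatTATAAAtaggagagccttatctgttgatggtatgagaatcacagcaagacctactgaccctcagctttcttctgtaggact
TATAAA began at -203 in the first and at -29 in the next promoter of Il33, and at -248 and -31 in that of Il13ra2. The match of TTCNNNNGAA in the first promoter of Il33 began at -36. The counts per gene do not tell which start site of Il33 was used.

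Among the other interleukins, Il1f6 (IL-36α, an epithelial cytokine of the IL-1 family) had 13 and 31 copies, 2.44-fold higher (1.24 to 5.09). Il17d had 82 and 44 copies, 1.82-fold lower (1.25 to 2.69). Il15, which supports natural killer cells, had 79 and 91 copies and an interval of 0.863 to 1.62, and those of Il16, Il18 and Il1f9 held 1 as well. Il1b, a main inflammatory cytokine, had 0 copies in Dox+ and 13 in Dox−, and Il1a 0 and 4. Il4, Il10, Il11, Il7, Il17a and Il17b had 7 copies or fewer in either library.

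The largest fold in the lower direction was that of Il13ra2 (chromosome X, 143818019 to 143863735), a decoy receptor that binds IL-13. It had 180 copies in Dox+ and 6 in Dox−, 29.3-fold lower (13.2 to 80.9). Its combined copies, 186, were under the minimum for a call. The chains that signal for IL-4 and IL-13 differed from it. Il4ra (chromosome 7, 132695785 to 132722986), their shared chain, had 201 and 547 copies, 2.79-fold higher (2.37 to 3.29), and was called. Il13ra1, its partner in the type II receptor, had 221 and 173 copies, 1.25-fold lower (1.02 to 1.53), and was not called. Il2rg, the partner in the type I receptor, had 42 and 40, and its exons overlap another gene on the same strand.

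The IL-17 receptor chains were unlike each other. Il17ra (chromosome 6, 120413215 to 120433745), the chain common to most of these receptors, had 34 copies in Dox+ and 233 in Dox−, 7.02-fold higher (4.88 to 10.4). It had the largest fold of the called genes, and its interval overlaps that of Ccl11. Il17rc, the partner of Il17ra for IL-17A, had 109 and 132 copies, 1.24-fold (0.955 to 1.61). Il17re, the epithelial partner for IL-17C, had 102 and 124, 1.25-fold (0.950 to 1.63). Neither was called. Il17rb, the partner for IL-25, had 63 and 38 copies, 1.62-fold lower (1.07 to 2.49), and Il17rd had 59 and 50, with an interval that held 1.

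Il3ra (chromosome 14, 15179009 to 15188004), the specific chain of the IL-3 receptor, was called lower, with 206 and 107 copies, 1.88-fold (1.48 to 2.40). Il15ra, which presents IL-15 to other cells, had 84 and 21 copies, 3.91-fold lower (2.40 to 6.64), while the interval of its ligand Il15 held 1. Il10ra had 32 and 12 copies, 2.60-fold lower (1.31 to 5.55). Its partner Il10rb had 261 and 190, 1.34-fold lower (1.11 to 1.63), and did not pass the log2 threshold. The exons of Il10rb overlap those of Ifnar2 on the same strand, so tags there are uncertain.

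Il1r1, the receptor of IL-1, had 188 and 151 copies, 1.22-fold lower with an interval of 0.976 to 1.52. Il20rb, a chain of the IL-20 receptors, had 23 and 41 copies, 1.83-fold higher (1.07 to 3.19). Of the 12 receptor chains with 20 to under 200 copies, 2 were higher and 4 lower by their intervals. Of all genes in that range, 21.1% were higher and 20% lower. The interleukin receptors summed to 1759 copies in Dox+ and 2002 in Dox−, and to 1558 and 1455 without Il4ra, so that the direction of the sum rests on this gene.

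**Figure D4:**
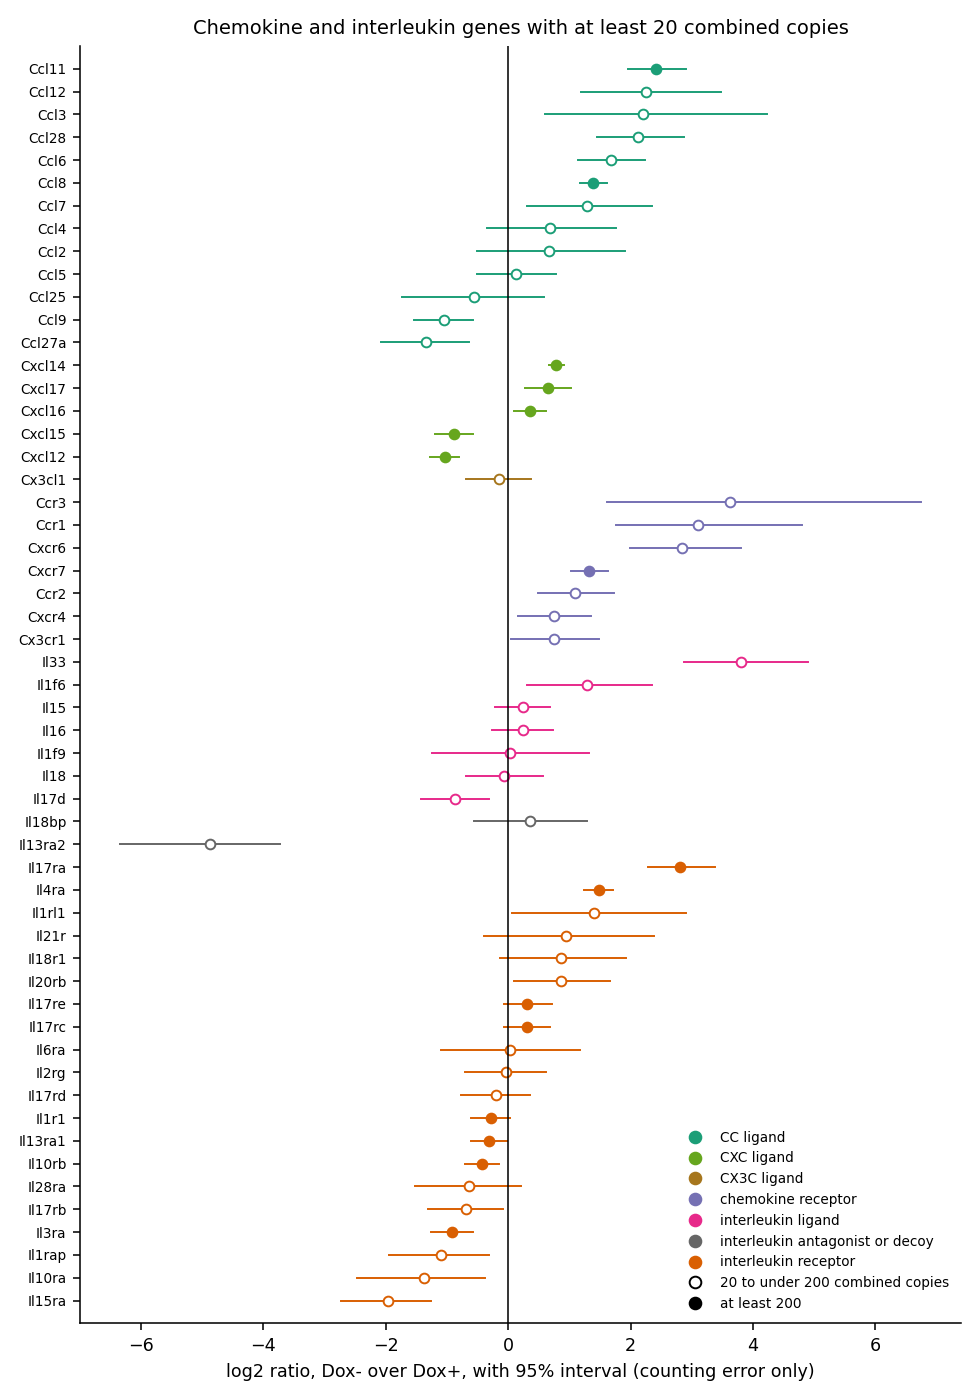
The log2 ratio of Dox− over Dox+ of 55 genes with at least 20 combined copies is shown with 95% intervals for counting error, coloured by role, with filled points from 200 copies on. The interleukin receptors lie on both sides of 0.

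In all, 16 of the 39 genes with 20 to under 200 copies had an interval that held 1, with log2 ratios from -0.64 to 0.94. Those not given above were Il18bp, which neutralises Il18, with 20 and 25 copies, and the receptor chains Il28ra with 32 and 20, Il18r1 with 14 and 25, Il6ra with 15 and 15 and Il21r with 8 and 15. Of the 33 genes under 20 copies, 19 had more copies in Dox−, 13 fewer and 1 the same number, where 1143, 1293 and 163 of all 2599 genes under 20 copies did. Among them were the antagonists Il1rn with 2 and 16 copies and Il22ra2 with 3 and 0, and Ccl17, a ligand of Ccr4, with 11 and 0. The remaining ones were Ccl24 with 11 and 2 copies, Il34 with 2 and 10, Il7r with 5 and 11, and Il2ra, Il12rb1, Il27ra, Il1r2, Il1f8, Ccl22 and Cxcl13 with 7 or fewer in each library. Of the 89 genes, 9 had no tag in Dox+ and 7 none in Dox−.

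Levels were compared between genes per length, with the annotated exons of each gene as its length. On this scale of TPM per kb, Cxcl14 and Ccl8 led in Dox+ with 77.6 (72.5 to 83.0) and 77.5 (67.9 to 88.0), and these do not differ beyond counting error. Il3ra followed with 24.7, Cxcl17 with 22.4 and Cxcl15 with 19.9, with overlapping intervals. In Dox−, Ccl8 led with 202.9 (187.1 to 219.7), ahead of Cxcl14 with 134.2 (127.4 to 141.4). Ccl11 with 37.2 and Cxcl17 with 35.1 came next and do not differ beyond counting error. Il13ra2 went from place 6 in Dox+ to place 64 in Dox− of 87 genes with a length. A DGE tag need not scale with transcript length, so this order depends on the length correction. By copies alone, Cxcl14 was ahead of Ccl8 in both libraries, with 847 and 237 copies in Dox+ and 1430 and 606 in Dox−.

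Signalling partners of these receptors, with a few related chemokines and atypical receptors, were followed with a list of 52 symbols. Of these, 49 were in the table, the other 3 being newer names of genes listed under their older ones, and 19 had enough copies. Of the 19, 4 (21.1%) were called higher and 1 (5.26%) lower, where 18.8% and 17.8% of all genes with enough copies were, so that the share called higher was near that of all genes. Their median log2 ratio was -0.01. Myd88, the adaptor of the IL-1 receptor family, was called lower with 769 and 284 copies, 2.64-fold (2.30 to 3.04). Socs3 and Socs2, feedback inhibitors of JAK-STAT signalling, were called higher, with 111 and 180 copies (1.66-fold, 1.30 to 2.12) and 202 and 315 copies (1.60-fold, 1.33 to 1.92). Gnai2, a G protein subunit used by chemokine receptors, had 1684 and 2403 copies, 1.46-fold higher (1.37 to 1.56). Grk6, a kinase that desensitises such receptors, had 224 and 312, 1.43-fold higher (1.20 to 1.70). Stat6, which signals for Il4ra, had 366 and 323 copies and was not called.

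Marker genes of leukocytes also differed between the libraries, in both directions. Ptprc, carried by all leukocytes, had 49 copies in Dox+ and 130 in Dox−. The neutrophil markers S100a8, S100a9 and Mpo, 3 of 6 listed, summed to 42 and 216 copies, and all 3 had an interval above 1. All 3 had 20 to under 200 combined copies, a range where 21.1% of all genes had such an interval. The 7 macrophage markers summed to 626 and 829 copies, with Csf1r at 186 and 181 and Mrc1 at 163 and 241. Itgam had 45 and 97 copies, Emr1 70 and 102 and Lyz2 127 and 169. Cd14 had 30 and 31 and Cd68 5 and 8. The T cell list of 6 genes summed to 38 and 68 copies. Cd3g had 22 and 34 copies, Cd3e 8 and 19 and Cd3d 8 and 6. Cd4, Cd8a and Cd8b1 had 0 in Dox+ and only 4, 3 and 2 in Dox−.

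The lists for mast cells and natural killer cells had fewer copies in Dox−. The 4 mast cell markers summed to 125 and 31 copies. Cpa3 had 66 and 9, Mcpt4 28 and 0, Fcer1a 9 and 2 and Kit 22 and 20. The 5 natural killer markers in the table summed to 89 and 48. The 3 B cell markers in the table summed to 9 and 25 copies. The 2 eosinophil markers summed to 5 and 17, with Prg2 at 5 and 6 and Siglec5 at 0 and 11. The 4 dendritic cell genes summed to 1478 and 1428, of which H2-Ab1 made up 1428 and 1347. Itgax had 30 and 36 copies, Cd209a 12 and 27 and Flt3 8 and 18. In the tissue itself, the 4 epithelial genes summed to 4262 and 5292 copies, and the 4 smooth muscle genes to 20917 and 13619. The 4 endothelial genes summed to 786 and 537, and to 340 and 321 without Cdh5, which had 446 and 216, while Pecam1 had 243 and 253. The part of these cells in the differences above was not tested, and fewer cells of a type and less RNA per cell cannot be told apart in pooled tissue.

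**Figure D5:**
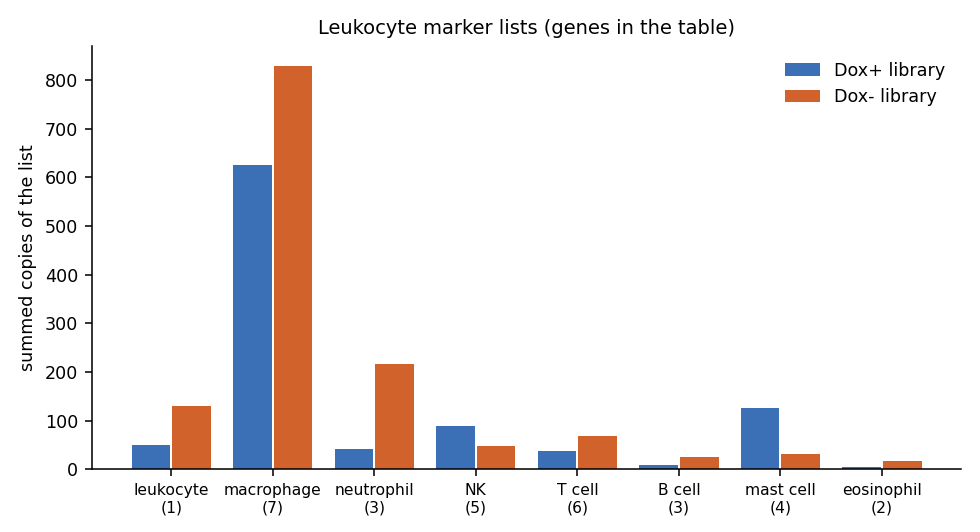
Bars give the summed copies of each leukocyte marker list in the Dox+ (blue) and Dox− (orange) libraries, with the number of genes in the table in brackets. The neutrophil list went from 42 to 216 copies and the mast cell list from 125 to 31.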

How the data were processed

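Total RNA of uteri at G2.5 was pooled and sequenced by DGE tag profiling, with 1 library per condition. The deposited counts are the clean tags that the authors assigned to each gene without ambiguity against mm9 reference transcripts, after adaptor-only tags, low quality tags and tags seen once had been removed. The processing notes of the submitters name CASAVA, and the aligner and the restriction enzyme are not given in the sources used here. The sample descriptions mention fragmentation of mRNA where the paper describes tags, and this difference was not resolved. The TPM was calculated by the authors by scaling the copy number to the clean tags of the library, not to gene length, and a gene with no tag was given 0.01. The log2 ratio, the ratio in both directions (fold), the P-value and the FDR deposited by the authors hold their own comparison and were not used.

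The counts were used here, and library sizes were recovered from count and TPM as 5985926 clean tags for Dox+ and 5844314 for Dox−. Calls used the two-sided Audic-Claverie test over all 14678 genes with Benjamini-Hochberg adjustment, and no gene-wise P-value is printed. The 95% bounds of a fold come from the exact Clopper-Pearson method applied to the share of the combined copies found in Dox−. Like the exact Poisson bounds of counts, they hold counting error alone. With 1 to 3 copies in a library the ratio is given with its interval, which replaces an earlier plan to set such counts to 3. The 89 genes and all lists were chosen with earlier results of these data known. Every gene with at least 200 combined copies was named, and from 20 to under 200 combined copies those whose fold interval lay outside 1, except for 1 gene that enters the counts and is not reported here. Of 52 listed signalling partners, the called ones were named, up to 6. Promoters were taken from RefSeq on GRCm38.p6 and matched by gene ID for 64 genes, positions from GENCODE on NCBIM37, the assembly called mm9, for 87 genes. The method was tested on simulated data that held counting error only, without spread between pools. The alternatives were other copy number minimums, TMM scaling, counted tags as library sizes, Fisher's exact test, edgeR with an assumed coefficient of variation, a fold change of at least 2 and a pseudocount. Python 3.11.15, numpy 2.4.6, scipy 1.17.1, pandas 2.3.3, R 4.3.3 and edgeR 4.0.16 ran the calculations.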

Additional observations from a re-analysis of the deposited data

How the results depend on the processing

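With 1 library per condition the spread between pools is unknown, and at low copy number the depth limits what could be called. With TMM scaling, with the counted tags as library sizes and with Fisher's exact test, the same 7 genes were called higher and the same 4 lower. When the minimum of combined copies was 100, 13 genes were called higher and 9 lower, and when it was 20 there were 19 higher and 12 lower, because more genes were tested. These were 40.6% and 28.1% of 32 genes, and 33.9% and 21.4% of 56, where all genes gave 19.2% and 18.2%, and 18.1% and 17.6%. At a fold change of at least 2, 5 genes were called higher and 1 lower, which was Cxcl12. The exact test of edgeR with an assumed coefficient of variation of 0.2 between pools called 5 genes higher (Ccl8, Ccl11, Cxcr7, Il4ra and Il17ra) and 0 lower, with 3 lower at an unadjusted P-value under 0.05. These were 29.4% and 0% of the 17, where all genes gave 2.25% and 2.66%. Of the 5, Ccl11 and Il17ra reached the minimum of combined copies through Dox−. The log2 ratios of the 40 genes that had at least 200 combined copies, or 20 to under 200 and an interval outside 1, stayed within their intervals under TMM scaling, counted tags and a pseudocount of 1. TMM scaling moved the median log2 ratio of all genes by -0.02 and counted tags by 0.04, and each shifts all genes alike. Both shifts are smaller than the intervals, so that staying within them was fixed by these settings. It does not measure the spread between pools. No paired analysis was possible because each condition has 1 library.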

Other observations

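Outside the listed rule for naming genes, 3 signalling partners were picked after their values were seen. One is Stat6, given above. Ccrl1, an atypical receptor that takes up chemokines without signalling through G proteins, had 33 copies in Dox+ and 0 in Dox−, at least 10.7-fold lower when 3 copies are set for the library at 0. Socs1, an inhibitor of JAK signalling downstream of cytokine receptors, had 33 copies in Dox+ and 87 in Dox−, 2.70-fold higher (95% interval 1.79 to 4.16).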
